A study of Mus musculus with 5 samples.

Results

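The genes described here encode ion channels known from sperm. The pore subunits of the CatSper calcium channel are Catsper1, Catsper2, Catsper3 and Catsper4, and its auxiliary subunits here are Catsperb, Catsperg1 and Catsperg2. The others are the potassium channel Kcnu1 and the proton channel Hvcn1. All these genes were taken by gene name from the deposited expression table and joined by transcript accession to the deposited binding table. The 9 genes had 22 transcript rows, of 21734 named genes and 55350 rows in all. Testes came from mice 3 months old, and 5 libraries were made. RNA was sequenced from testis of Taf7l-/Y mice, labelled TAF7L knockout, and from wild-type (WT) testis, in 1 library per genotype, each from a pool of 6 extracts. Chromatin labelled wild type was immunoprecipitated with TAF7L, RNA polymerase II (Pol II) or mixed IgG antibodies in 1 library each; the protocol that these libraries share names both WT and knockout tissue from 10 mice. TAF7L is a germ cell paralogue of TAF7, a subunit of the general transcription factor TFIID. The sources used here do not give the strain, and whole testis holds germ and somatic cells together.

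CatSper is a calcium channel confined to the principal piece of the sperm tail. Its pore is built from the 4 different alpha subunits, and calcium entry through it drives the hyperactivated beat needed for fertilisation. The potassium channel encoded by Kcnu1, known as SLO3, hyperpolarises mouse sperm when the cytoplasm becomes alkaline, and Hvcn1 encodes a voltage-gated channel that lets protons leave the cell.

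The RNA libraries held 1e+08 to 2e+08 reads each, per the labels. With no replicate library, differences are given as sizes with no test, and the standard deviation (SD) printed is the authors' SD within 1 library, whose basis the header does not define. Taf7l itself had a signal of 2.04 ± 0.60 in the knockout library and 13.2 ± 1.56 in the WT library. The header names no unit for this signal. Change is log2((knockout + 1)/(WT + 1)), and a gene is called higher or lower at 2-fold. A filter kept the 12439 named genes whose signal averaged 1 or more over both libraries; of these, 7.32% were called lower and 7.36% higher, and the median change was 0.40. Multiplying the knockout signal by 0.711 set that median to 0, with 12.8% lower and 1.03% higher. In whole testis, fewer cells of a type and less RNA per cell cannot be told apart.

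The 2-fold call placed some channel genes as lower in the knockout library and the others within 2-fold of WT. All 9 passed the filter. Catsper4, Catsper1, Kcnu1 and Catsper3 were called lower, 4 of 9 against 7.32% of all genes, and no channel gene was called higher. The median change of the 9 was -0.62, against 0.40 for all genes. After rescaling, Catsperg1 was also lower, which made 5 of 9 against 12.8% of all genes. In 6 of the 9 the bands of 1 within-library SD did not overlap and the knockout was lower, against 17.2% of all genes; none was higher with bands apart, against 49.5% of all genes. For the remaining 3, Catsper2, Catsperb and Hvcn1, the bands overlapped.

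**Figure D1:**
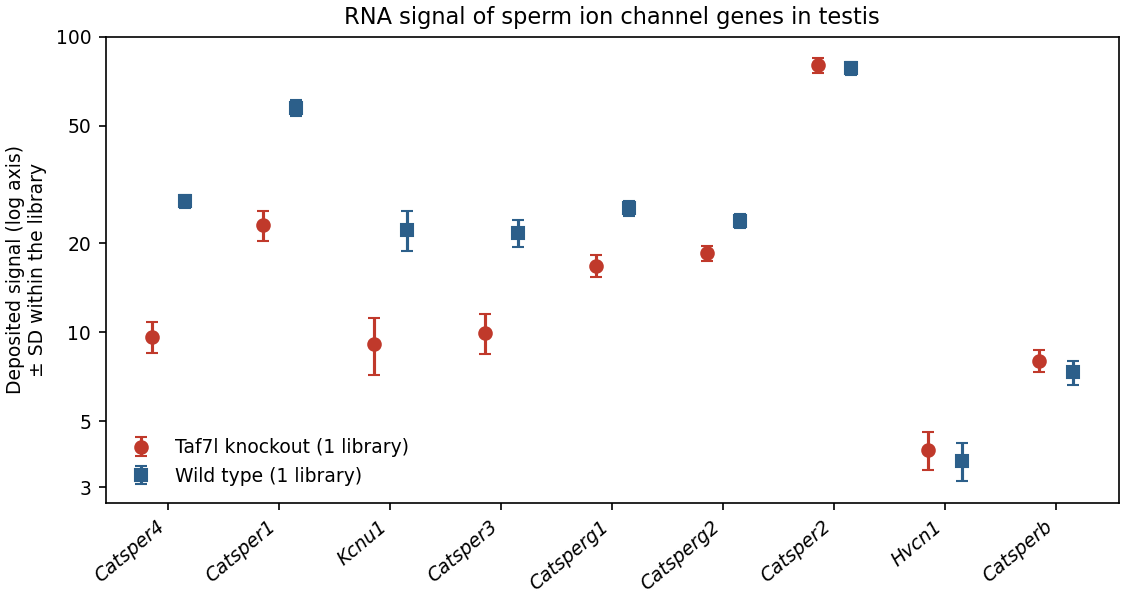
Deposited RNA signal (log axis) of each channel gene in the knockout library (circles) and the WT library (squares), 1 library each, with bars of 1 SD within the library; genes run from the lowest change to the highest. The first 4 genes are below WT by more than 2-fold, and the symbols of Catsper2, Hvcn1 and Catsperb nearly coincide.

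Among the pore subunits 3 of 4 were lower in the knockout library. Catsper4 (mm9, chromosome 4, 133767882 to 133783298) had a signal of 9.67 ± 1.17 in the knockout and 27.8 ± 1.35 in WT, a change of -1.43 that left 34.8% of the WT signal. Catsper1 (chromosome 19, 5335740 to 5344153), the subunit with a long histidine-rich tail inside the cell, had 23.1 ± 2.73 in the knockout and 57.6 ± 3.71 in WT, a change of -1.28. Catsper3 (chromosome 13, 55885939 to 55910359) had 9.995 ± 1.55 in the knockout and 21.7 ± 2.26 in WT, a change of -1.05. Catsper3 lay closest to the 2-fold line of these, and with both libraries scaled to the same total signal its change was -0.96, within 2-fold. Catsper2 (chromosome 2, 121223196 to 121239528) stood apart, with 80.0 ± 4.50 in the knockout and 78.2 ± 3.92 in WT. Its change was 0.03, and -0.45 after rescaling. Genes for subunits of a single pore had knockout signals between 34.8% and 102% of WT.

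The pore subunits were spaced differently in both libraries. In the knockout library Catsper2 was first with 80.0, then Catsper1 with 23.1, and Catsper3 and Catsper4 followed with overlapping SD bands. In WT Catsper2 was first with 78.2 and Catsper1 second with 57.6, their bands apart, and Catsper4 and Catsper3 followed. These orders assume that the deposited signal is per length, which the header does not state.

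Catsper2 was the only channel gene with a TAF7L score in the promoter class. RefSeq promoters were matched for 5 of the 9 genes (Catsper2, Catsper3, Catsper4, Catsperb and Catsperg1). The 250 bases before the start of Catsper2, with the TAF7L score, and of Catsper3 and Catsper4, without it, are shown 5′ to 3′ in the direction of the gene (GRCm38.p6). Capitals mark the cAMP-response half-site TGACG, the GC box GGGCGG and the CCAAT box on either strand; the TATA box TATAAA was searched too.
Catsper2 (chr2:121413793-121414042, minus strand): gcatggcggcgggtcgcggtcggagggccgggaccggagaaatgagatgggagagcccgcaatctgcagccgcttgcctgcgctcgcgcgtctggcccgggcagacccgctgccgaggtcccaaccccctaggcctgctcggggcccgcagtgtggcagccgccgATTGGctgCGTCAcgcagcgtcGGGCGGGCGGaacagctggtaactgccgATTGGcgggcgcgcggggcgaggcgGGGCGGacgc
Catsper3 (chr13:55784329-55784578, plus strand): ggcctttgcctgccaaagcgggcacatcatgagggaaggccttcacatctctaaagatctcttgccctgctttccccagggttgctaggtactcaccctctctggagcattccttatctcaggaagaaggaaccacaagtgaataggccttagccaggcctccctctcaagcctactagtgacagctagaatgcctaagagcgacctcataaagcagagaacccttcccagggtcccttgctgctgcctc
Catsper4 (chr4:134227384-134227633, minus strand): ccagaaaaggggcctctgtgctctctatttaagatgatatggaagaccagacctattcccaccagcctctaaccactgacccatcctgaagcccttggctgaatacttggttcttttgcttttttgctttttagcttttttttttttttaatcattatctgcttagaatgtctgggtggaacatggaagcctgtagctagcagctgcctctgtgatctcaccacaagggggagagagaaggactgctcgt
The Catsper2 window was 74.8% G + C with 35 CpG dinucleotides, while the medians of 32851 RefSeq promoters were 52.4% and 6. It held GGGCGG 3 times on the strand of the gene, where copies can overlap, and CCAAT 2 times and TGACG 1 time on the other strand. Catsper3 and Catsper4 had 54.0% and 45.2% G + C, 2 CpG and 1 CpG, and no match to any of the 4 motifs. Of all promoters, 32.7% held GGGCGG, 33.8% CCAAT, 17.8% TGACG and 12.4% TATAAA in the same window. These matches describe letters and are not binding sites. In mm9 the span of Pdia3 begins 109 bp from that of Catsper2, and the span of the cDNA AK019623 ends 99 bp from that of Catsper3. The 250-base windows of Catsper2 and Catsper3 can therefore reach into these neighbours.

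The auxiliary subunits were within 2-fold of WT. Catsperg1 (chromosome 7, 29966550 to 29999052), which encodes a gamma subunit, had 16.8 ± 1.42 in the knockout and 26.3 ± 1.45 in WT, a change of -0.62, or -1.08 after rescaling. Catsperg2 (chromosome 7, 30482237 to 30512034), its paralogue, had 18.6 ± 1.08 in the knockout and 23.8 ± 1.31 in WT, a change of -0.34, or -0.81 after rescaling. Reads from these closely related copies may have been split or shared in counting, so the values of each are uncertain. Catsperb (chromosome 12, 102642882 to 102864219), the beta subunit, had 8.02 ± 0.696 in the knockout and 7.32 ± 0.667 in WT. The change of Catsperb was 0.12, and it turned to -0.31 after rescaling. The rows of Catsperb had neither a TAF7L nor a Pol II score in any class. Its promoter window is shown for comparison with those of the pore subunits.
Catsperb (chr12:101404423-101404672, plus strand): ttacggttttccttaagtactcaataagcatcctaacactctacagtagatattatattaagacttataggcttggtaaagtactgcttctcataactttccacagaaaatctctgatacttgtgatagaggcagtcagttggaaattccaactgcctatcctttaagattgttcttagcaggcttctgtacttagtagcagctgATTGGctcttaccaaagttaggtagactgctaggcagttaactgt
This window had 38.0% G + C, 1 CpG and a single CCAAT on the other strand. The 2 starts listed for Catsperg1 had 58.4% and 46.0% G + C, the first with 1 GGGCGG and the second with 1 TATAAA.

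Kcnu1 was lower by about as much as the lower pore subunits. The row used (chromosome 8, 27022151 to 27044989) had 9.16 ± 1.99 in the knockout and 22.3 ± 3.41 in WT, a change of -1.20. The longer row of Kcnu1 (26960094 to 27048406) had 6.91 ± 0.885 in the knockout and 16.6 ± 1.24 in WT, a change of -1.15. Lrrc52, which encodes the auxiliary subunit of the SLO3 channel, had 13.2 ± 3.12 in the knockout and 22.1 ± 2.79 in WT, a change of -0.70, within 2-fold. It was -1.15 after rescaling.

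Hvcn1 had the lowest signal of the 9 in both libraries. The gene (chromosome 5, 122660306 to 122692306) had 4.02 ± 0.60 in the knockout and 3.69 ± 0.55 in WT, a change of 0.10 that turned to -0.28 after rescaling. Its span overlaps by 784 bp that of Tctn1, a gene of the ciliary transition zone, with 5.38 ± 0.746 in the knockout and 5.36 ± 0.749 in WT. The same span is also listed as Tect1. Leukocytes express Hvcn1 too. Of 10 leukocyte markers all were in the table and 6 passed the filter; 2 of the 6 were called higher, against 7.36% of all genes, and none lower. After rescaling 0 were higher, against 1.03% of all genes. None of the 10 was at 0 in either library. The summed signal of these markers was 85.3 in the knockout and 42.3 in WT. Of the 6 that passed, only Cd74 was below WT, with 8.17 ± 1.39 in the knockout and 10.1 ± 1.48 in WT. Its SD bands overlapped. The pan-leukocyte gene Ptprc did not pass, with 0.163 ± 0.214 in the knockout and 0.051 ± 0.147 in WT, each SD above its mean. The part of leukocytes in the Hvcn1 signal was not tested.

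**Figure D2:**
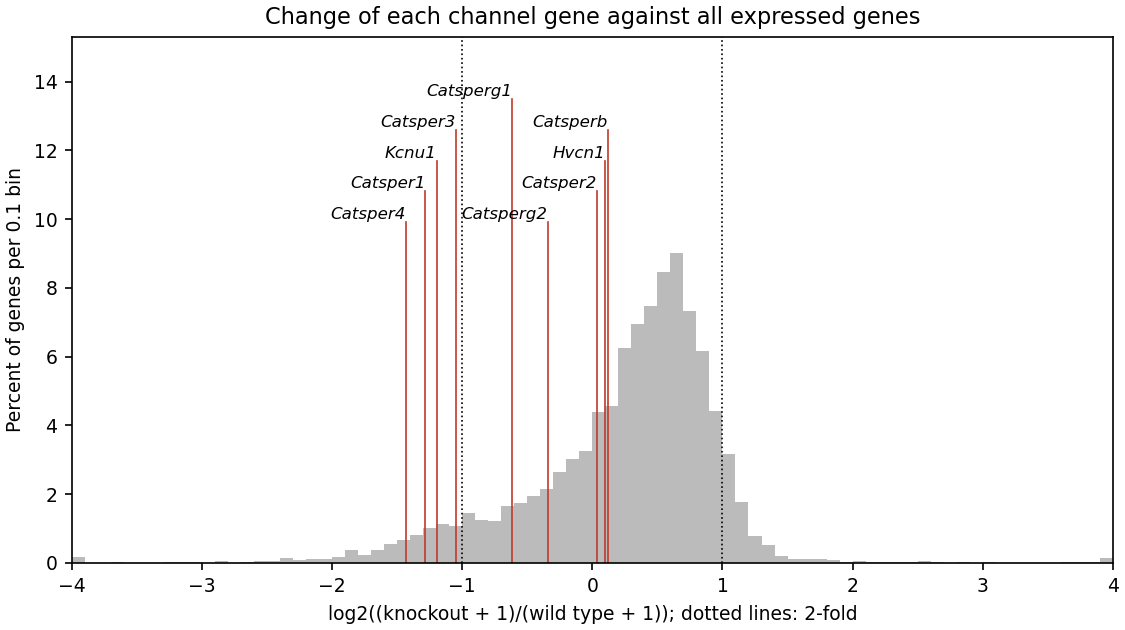
Grey bars give the percent of 12439 named genes in each 0.1 bin of log2((knockout + 1)/(WT + 1)), with 36 genes beyond the axis drawn at its ends, and red lines mark the channel genes. Catsper4, Catsper1, Kcnu1 and Catsper3 lie left of the 2-fold line at -1, and all 9 lie below the median of 0.40.

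Transcript rows of each gene called lower all lay past the 2-fold line. Of the 22 rows, 9 were called lower and 0 higher, against 5.95% lower and 5.03% higher among the 26337 rows of named genes that passed the same filter. These 9 were the single row of Catsper1 and every row of Catsper3, Catsper4 and Kcnu1, and rows of 1 gene share reads. Changes spanned -1.43 to -1.42 over the 3 rows of Catsper4 and -1.06 to -1.05 over the 3 rows of Catsper3. Catsper2 rows differed in level, with 80.0, 55.7 and 26.6 in the knockout and 78.2, 57.6 and 27.9 in WT, while their changes stayed between -0.07 and 0.03. In Hvcn1, a short row of 6148 bp had 2.86 ± 4.85 in the knockout and 2.53 ± 4.22 in WT, an SD above the mean.

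Names at the gamma subunit loci did not always follow position. A row named Catsperg1 (chromosome 7, 30485832 to 30512034) lies inside the span of Catsperg2, with 16.3 ± 1.14 in the knockout and 20.1 ± 1.27 in WT. Its change of -0.29 was near the -0.34 of Catsperg2 and less than the -0.62 of Catsperg1. A further row named A230107C01Rik, an older symbol of Catsperg1, overlaps that gene over 29225 bp and was not among the 22 rows. It had 15.2 ± 1.27 in the knockout and 25.2 ± 1.61 in WT, a change of -0.69.

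**Figure D3:**
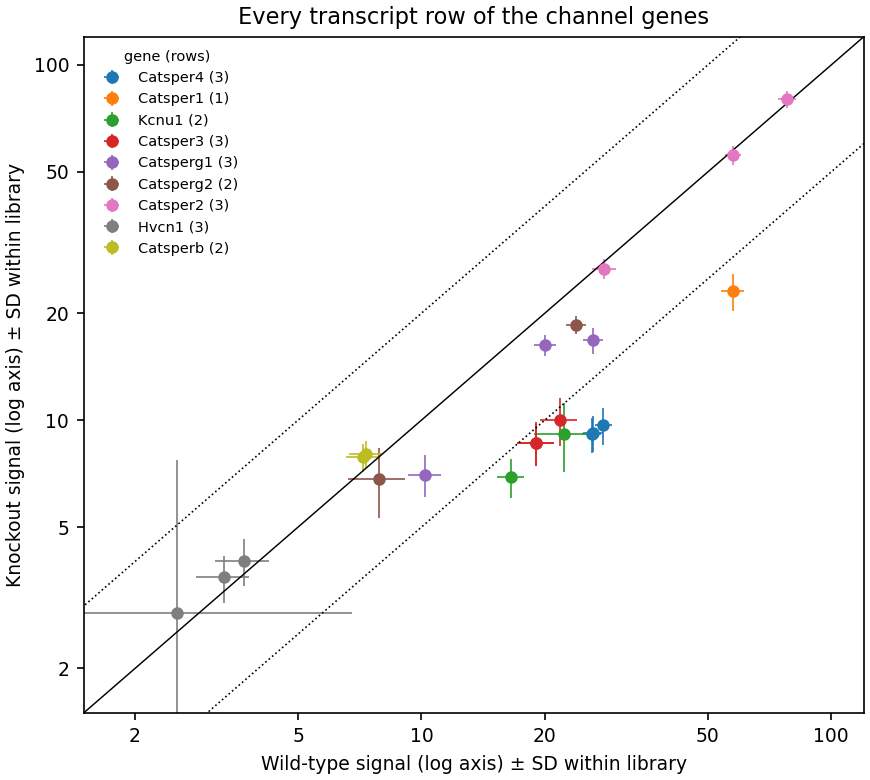
Knockout signal against WT signal (both log axes) of all 22 transcript rows, with bars of 1 SD within each library, cut off at the axes for the short Hvcn1 row. The solid line marks equal signal and the dotted lines 2-fold; rows of Catsper1, Catsper3, Catsper4 and Kcnu1 lie below the lower dotted line.

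TAF7L scores at the channel genes were mostly outside the promoter class. Each transcript of the binding table has a score per factor for 3 position classes, promoter, proximal and distal; how the score and the distances were set is not stated in the header. TAF7L scored above 0 in the promoter class of 1 of the 9 genes, against 55.1% of all genes, in the proximal class of 2, against 33.8%, and in the distal class of 5, against 53.6%. Catsper2 had a promoter score of 98.6, where the median of genes with such a score was 71.7. The same value stood in the proximal class of the Catsper2 row with the lowest RNA signal. The longer row of Kcnu1 had a proximal score of 44.7 and a distal score of 34.0, and the row used for its RNA signal had no score. Distal scores were 142 at Catsperg1, 89.1 at Catsper2, 83.3 at Catsper4 and 75.7 at Catsper1. Catsper3, Catsperb, Catsperg2 and Hvcn1 had no TAF7L score in any class, 4 of 9 against 22.2% of all genes. Apart from Catsper2, the channel genes within 2-fold of WT lacked a TAF7L promoter score, as did the 4 lower ones. The relation of this score to the RNA change was not tested.

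Pol II was scored in the promoter class of 7 of the 9 genes, against 86.7% of all genes. Catsper2 had 1110, Kcnu1 181, Catsper4 167, Catsper3 153, Catsper1 129, Catsperg1 97.0 and Catsperg2 74.5, where the median of genes with a score was 374. In the proximal class 4 of the 9 had a Pol II score, against 63.3% of all genes, and in the distal class 7, against 77.1%. Promoter scores other than that of Catsper2 lay below the median. Hvcn1 had only a distal Pol II score of 42.6, and Catsperb had no score of either factor in any class, as did 3.87% of all genes. RNA signal and Pol II promoter score ranked the genes alike only in part. Catsper2 was first by both, and Catsperb and Hvcn1, the lowest by WT signal, had no Pol II promoter score. Catsper1, second by WT signal, had a lower score than Kcnu1, Catsper4 and Catsper3. The Kcnu1 score stood at its longer row, not at the row used for its RNA signal.

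**Figure D4:**
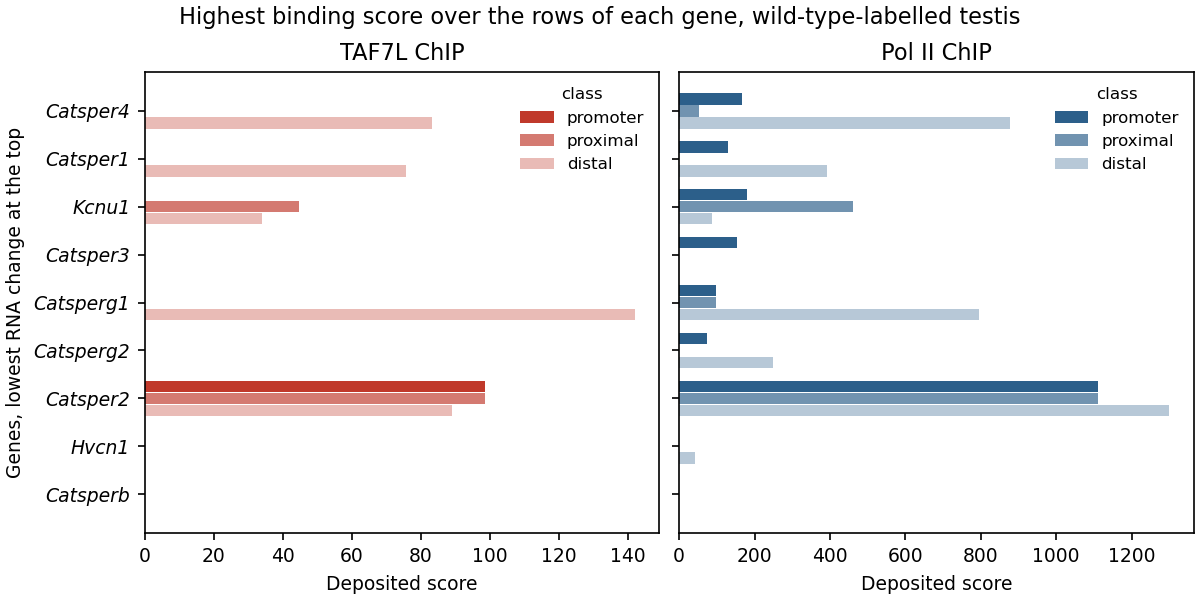
Deposited TAF7L (left) and Pol II (right) scores of each channel gene in the promoter, proximal and distal classes, as the highest over its transcript rows; genes run from the lowest RNA change at the top. Catsper2 alone has a TAF7L promoter bar, and Catsperb has no bar.

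Every TAF7L score at a channel gene also stood, with the same value, at another gene. The 9 genes carried 7 distinct TAF7L values above 0 over all their transcript rows. All 7 were found at a transcript within 100000 bp whose span does not overlap. Such sharing was common: of 15399 distinct values over the rows used for all genes, 78.9% were shared in this way. That share took only the row used for each gene, so its basis differs from that of the 7 values. The Catsper2 promoter values, 98.6 for TAF7L and 1110 for Pol II, were also the promoter values of Pdia3, an endoplasmic reticulum disulphide isomerase whose span begins 109 bp from that of Catsper2. Pdia3 had an RNA signal of 182 ± 7.31 in the knockout and 119 ± 4.97 in WT, a change of 0.61. The distal TAF7L value of Catsperg1, 142, was the promoter value of Psmd8, a proteasome subunit gene 858 bp away. Psmd8 had 119 ± 6.01 in the knockout and 112 ± 4.65 in WT. Proximal TAF7L at Kcnu1, 44.7, was the promoter value of a row of Ash2l, a histone methyltransferase subunit gene, 8843 bp away. The nearest row of Ash2l, 1952 bp away, had 47.2 ± 2.64 in the knockout and 36.3 ± 1.47 in WT. Distal values of Catsper1, Catsper2 and Catsper4 equalled promoter values of Sf3b2, Serf2 and Ccdc21, between 24882 and 40285 bp away. Which gene each signal belongs to was not tested. At Catsper3 the Pol II promoter value of 153 was that of the cDNA AK019623, whose span ends 99 bp away. That cDNA had 4.62 ± 3.39 in the knockout and 10.4 ± 4.61 in WT, with overlapping SD bands. Its change was -1.02, beside the -1.05 of Catsper3, whose bands were apart. These neighbours were named with their values already known.

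The other known CatSper subunits were mostly within 2-fold of WT. Of 10 listed genes 7 were in the table and passed the filter; 1 was called lower, against 7.32% of all genes, and 0 higher, against 7.36%. The median change was -0.21, and 1 of 7 is too few to set the list apart from that share. Efcab9, which encodes a calcium-binding sensor of the complex, was the lower one, with 49.3 ± 7.02 in the knockout and 117 ± 8.54 in WT, a change of -1.24. Catsperz, listed under 1700019N12Rik, had the highest signal, with 305 ± 14.4 in the knockout and 353 ± 11.5 in WT. Catsperd, listed as Tmem146, had 24.5 ± 1.72 in the knockout and 30.5 ± 2.26 in WT, a change of -0.31. After rescaling, C2cd6, listed as Als2cr11, joined Efcab9 below 2-fold at -1.12, which made 2 of 7 lower against 12.8% of all genes. As deposited, C2cd6 had 60.8 ± 5.90 in the knockout and 95.1 ± 8.41 in WT. A TAF7L promoter score was present at 3 of these 7 genes, against 55.1% of all genes.

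Most sperm ion transport and signalling genes were within 2-fold of WT. Of 22 listed genes 16 passed the filter; 2 were called lower, against 7.32% of all genes, and 0 higher, against 7.36%, so the count was near that of all genes. The median change was -0.05. Atp1a4, the sodium pump isoform of sperm, had 70.7 ± 3.40 in the knockout and 206 ± 5.36 in WT, a change of -1.53. Plcz1, the sperm phospholipase that activates the egg, had 11.0 ± 1.11 in the knockout and 33.3 ± 2.20 in WT, a change of -1.52. Vdac2, a mitochondrial outer membrane channel gene with the highest signal of the list, had 245 ± 9.19 in the knockout and 220 ± 7.98 in WT. After rescaling, Lrrc52 and Adcy10, the soluble adenylyl cyclase, were also lower, which made 4 of 16 against 12.8% of all genes. The change of Adcy10 was then -1.05, and as deposited it had 14.0 ± 1.15 in the knockout and 21.7 ± 1.65 in WT. The sperm sodium-proton exchanger Slc9c1, listed as Slc9a10, had 9.61 ± 0.687 in the knockout and 9.38 ± 0.688 in WT. Lrrc52, Catsperd, C2cd6, Adcy10 and Slc9c1, and the markers Ptprc, Cd74, Star, Insl3, Ldhc and Clu, lay outside the naming rule. These genes were picked with their values known.

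Cell type markers also differed between these libraries; 7.32% of all genes were called lower and 7.36% higher. Of 5 round spermatid markers 4 were called lower, with a summed signal of 450 in the knockout and 1055 in WT and a median change of -1.17. All 6 elongating spermatid markers were called lower, with summed signals of 11597 in the knockout and 64846.5 in WT and a median of -2.52. Of 5 pachytene spermatocyte markers 1 was called higher, with sums of 2938 in the knockout and 3125 in WT and a median of 0.81. Sertoli cell markers had 1 of 6 called higher, a sum of 1135 in the knockout and 592 in WT, and a median of 0.89; Leydig cell markers had 2 of 5 called higher and 0 lower, sums of 1540 in the knockout and 1911 in WT, and a median of 0.52. After rescaling, the round and elongating spermatid counts were 4 and 6 lower as before, no pachytene marker was higher, and 1 Sertoli marker was. Of the Leydig markers 2 were then lower and 1 higher, so the balance of their calls turned; 12.8% of all genes were lower and 1.03% higher. The Leydig genes Star, a cholesterol transport protein, and Insl3, a hormone, had changes of -0.95 and -0.68 as deposited and -1.39 and -1.17 after rescaling. The pachytene, Sertoli and Leydig sums each came mostly from 1 gene. Ldhc had 2307 in the knockout and 2666 in WT, a change of -0.21 where the pachytene median was 0.81. Clu had 1076 in the knockout and 564 in WT, and Insl3 had 1052 in the knockout and 1686 in WT. No marker found in the table was at 0 in either library. The changes of all 9 channel genes spanned -1.43 to 0.12, beside -1.43 to -0.33 for the round spermatid markers. Those of Catsper4, Catsper1, Kcnu1 and Catsper3, the genes picked by the 2-fold call, were between -1.43 and -1.05. The relation of the channel genes to the share of spermatids was not tested.

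**Figure D5:**
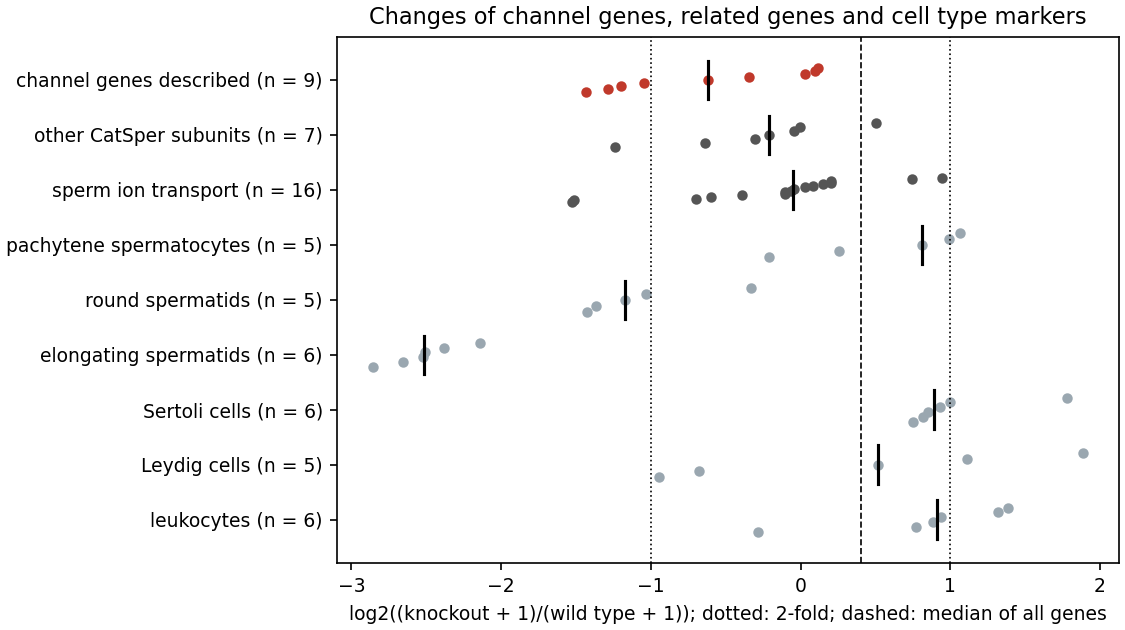
Change, as log2((knockout + 1)/(WT + 1)), of each gene that passed the filter in the channel genes (red), the related lists (dark grey) and the cell type markers (light grey), with black bars at list medians. The channel genes have a median of -0.62, the round spermatid markers -1.17 and the elongating spermatid markers -2.52, with the median of all genes at 0.40 (dashed).

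Genes nearest in signal were named for the channel genes with the highest WT signal and the lowest change. Likeness was the Euclidean distance in log2(signal + 1) over the 2 RNA libraries, among 12438 other genes. Closest to Catsper2 were Stk33, Nipbl and Ift43, at distances of 0.014, 0.041 and 0.044. Stk33, a kinase gene, had 80.2 in the knockout and 77.5 in WT. Closest to Catsper4 were Plb1, Chd5 and Fam161a, at 0.026, 0.044 and 0.066. Plb1, a phospholipase gene, had 9.82 in the knockout and 28.1 in WT. This distance covers level in both genotypes only.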

How the data were processed

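RNA and ChIP libraries of testis were sequenced. Per the submitters' processing notes, Bowtie, TopHat and Cufflinks were used for the RNA libraries, Bowtie for the ChIP libraries, and mm9 as build. The sources used here do not give versions, a peak caller or how IgG, which has no column, was used. The authors deposited an expression signal per transcript, as a mean and a standard deviation per library, with no unit in the header. The deposited log2 ratio (wild type over knockout) and the deposited ratio of SD over mean, both per the file headers, were not used. The deposited binding score has no definition in the header, and 0 was read as no signal.

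Computed here, in Python 3.11, were changes with a pseudocount of 1 (which understates the change of low genes) from the row with the highest mean of each gene, after a filter on a mean of at least 1. Names were matched to RefSeq symbols (GRCm38.p6, names only), which covered 47044 of 55350 rows; 8306 rows without a match were left out. The arithmetic was checked on simulated data without noise, which does not test the calls made here. A gene has a binding score when any of its rows does. No test was run, since each group has 1 library. Precision is known only as the deposited spread within a library, and the depth of the ChIP libraries is unknown. Strand was not stated, so overlapping and antisense genes could not be separated. The rule for named genes took every channel gene, members of the related lists called at 2-fold or highest in signal, the nearest and the overlapping genes, and Taf7l; genes named outside it are given as such. The genes and lists were chosen with earlier results of these data known. Alternatives were tried for pseudocount, filter, scaling and transcript row.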

Additional observations from a re-analysis of the deposited data

How the results depend on the processing

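Under 10 alternatives, the calls of Catsper1, Catsper4 and Kcnu1 were lower in each, while Catsper3 came to -0.96 with equal total signal. Rescaling to a median change of 0 set the median of the 9 channel genes to -1.08 and brought Catsperg1 to -1.08. It gave 2 lower genes of 7 in the list of other CatSper subunits and 4 of 16 in the ion transport list. The share of all genes called lower also rose, from 7.32% to 12.8%. Rescaling turned the small changes of Catsper2 (-0.45), Catsperb (-0.31) and Hvcn1 (-0.28) below 0. Changes of Catsper2 were also just below 0 with equal total signal without protamine and transition protein genes (-0.01) and with the mean (-0.01), sum (-0.01) or first (-0.07) of its rows. In the ion transport list 1 gene was higher with a pseudocount of 0.1, with none, or with equal total signal. The list median was 0.0294 with equal total signal and 0.0210 with summed rows; the cause was not tested. Among all genes, the share called higher was 16.4% with a pseudocount of 0.1, 18.0% with none and 11.2% with equal total signal, and with no filter 4.21% were lower and 4.27% higher. At a mean of at least 5, Hvcn1 was left out. Only 1 channel gene, Catsper2, had a Pol II promoter score at or above the median of genes with one. No paired analysis was possible because each genotype has 1 library. The files give no read counts behind each signal, so the precision that depth sets is unknown.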

Other observations

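Genes of the ion transport list with a mean signal under 1 were those of channels and exchangers best known from other tissues, and Tpte, a testis voltage-sensor phosphatase gene. Kcnma1, the somatic paralogue of Kcnu1, had 0.255 ± 0.368 in the knockout and 0.084 ± 0.106 in WT. Tpte had 0.264 ± 0.136 in the knockout and 0.758 ± 0.22 in WT. Slc9b2 had 0.030 in the knockout and 0.024 in WT, while its neighbour and paralogue Slc9b1, listed as Nhedc1, had 24.0 ± 2.07 in the knockout and 24.8 ± 1.68 in WT. Above the filter, Atp2b4, a plasma membrane calcium pump gene, had the highest change of the list, 0.95, with 13.1 ± 1.49 in the knockout and 6.30 ± 1.08 in WT. Kcnma1, Tpte, Slc9b2, Slc9b1 and Atp2b4 lay outside the naming rule and were picked with their values known.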
